A study of Rattus norvegicus with 9 samples.

Results

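The transcripts of 9 genes that make, sense and clear adenosine were followed in rat lung: Entpd1, Nt5e, the receptor genes Adora1, Adora2a, Adora2b and Adora3, and Slc29a1, Adk and Ada. They were taken by name from a table of 22833 genes, in which all 9 were found with 1 entry each. Lung RNA of 8-week-old male Sprague-Dawley rats was sequenced in 9 libraries, 3 from each of 3 groups: Sham, ischemia-reperfusion (IR) and ischemic post-conditioning (I-post C). All rats were given 20% urethane at 3 mL/kg and 50 U/kg of heparin and were ventilated through a tracheotomy, with the left chest opened. The Sham group had the left pulmonary hilum freed but not clamped, and the IR group had it clamped for 30 min and then released for 2 h. The I-post C group had the same 30 min clamp, then 3 cycles that each held 30 s of clamping and after it 30 s of release, before 2 h of reperfusion. The sources used here do not say which 3 of the 6 rats in each group gave RNA. Each library was taken as 1 animal, which the labels do not state, so p-values measure the spread between these libraries.

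Adenosine is a tissue signal of energy shortage. Stressed cells release ATP, the cell surface enzyme CD39 (Entpd1) cuts it to AMP, and CD73 (Nt5e) turns AMP into adenosine. Adenosine then acts on G protein-coupled receptors. The A1 and A3 receptors (Adora1, Adora3) lower cyclic AMP, and the A2A and A2B receptors (Adora2a, Adora2b) raise it. The signal ends when the equilibrative transporter ENT1 (Slc29a1) carries adenosine into cells, where adenosine kinase (Adk) makes it AMP again and adenosine deaminase (Ada) makes it inosine. Adenosine is a known mediator of conditioning, and A2A and A2B receptor signals are known to limit inflammation and leak in the injured lung.

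Total counts ran from 45110590 to 51214941 per library. These totals exceed the numbers of mapped reads that the study lists for the same libraries, so a count may not stand for 1 sequenced fragment, and what that does to the tests on counts was not tested. Differences were tested with edgeR's quasi-likelihood test on the counts, over 15402 genes whose mean was an FPKM (fragments scaled by transcript length and by library size) of at least 0.5. A differentially expressed gene (DEG) had an adjusted p under 0.05 and at least a 1-unit change in log2 fold change (log2FC), up or down. Sham 3 and IR 3 stood apart on the first and second principal components, which held 39.3% and 21.5% of the variance. IR 3 alone had a summed FPKM of 3788 over 5 skeletal muscle markers, against 5.96 to 59.6 in the other 8 libraries.

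Of the 9 genes, 8 passed the filter on low values, and Adora3 fell below it. None of the 8 was a DEG by edgeR in any of the 3 comparisons. For IR against Sham the count was 0 of 8 where 0.299% of all tested genes were called, and at an unadjusted p under 0.05 it was 1 of 8, Adora1, against 12.2% of all tested genes. In IR against Sham, DESeq2 on all 9 libraries called 1 of 8, Adora1, where it called 2.22% of all tested genes, and limma on log2(FPKM + 0.5) called 0 of 8, with 0.182% of all genes. DESeq2 on the 6 libraries compared, added after the data had been seen, also called Adora1 alone of the 8, with 1.9% of all genes. When I-post C was compared with IR and with Sham, edgeR, DESeq2 and limma each called 0 of 8. DESeq2 on all 9 libraries called 0.0974% and 0.825% of all genes in these comparisons, DESeq2 on the 6 libraries 0.247% and 0.701%, and limma 0%. There 0 of 8 had an unadjusted p under 0.05, against 3.01% and 6.91% of all genes, and edgeR called 0% of all genes. The log2FC was above 0 for 4 of 8 in IR against Sham, 3 of 8 in I-post C against IR and 7 of 8 in I-post C against Sham, with 47.9%, 47.6% and 47.2% of all tested genes. A log2FC of 1 or more in either direction was found for 2, 0 and 0 of the 8, and for 10.1%, 4.19% and 7.21% of all tested genes, whatever their p. The 2 comparisons with the IR group share its libraries, and those with the Sham group share the Sham libraries.

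The transporter and kinase genes had the highest levels and the A1 and A3 receptor genes the lowest. The mean FPKM over the 9 libraries was 115 for Slc29a1, 71.8 for Adk, 14.4 for Entpd1, 10.5 for Ada, 8.38 for Adora2b, 6.22 for Nt5e, 5.43 for Adora2a, 1.37 for Adora1 and 0.419 for Adora3. Adk was above Entpd1 in all 9 libraries with no overlap of their ranges. Every other pair of neighbours in this order overlapped in range, although Adora2a was above Adora1 within each of the 9 libraries. Slc29a1 was above Adk in 8 of 9 libraries and Entpd1 above Ada in 8 of 9. Ada was above Adora2b in 6 of 9, Adora2b above Nt5e in 7 of 9, and Nt5e above Adora2a in 7 of 9. In lung RNA of many cell types, fewer cells of a type and less RNA per cell cannot be told apart.

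**Figure D1:**
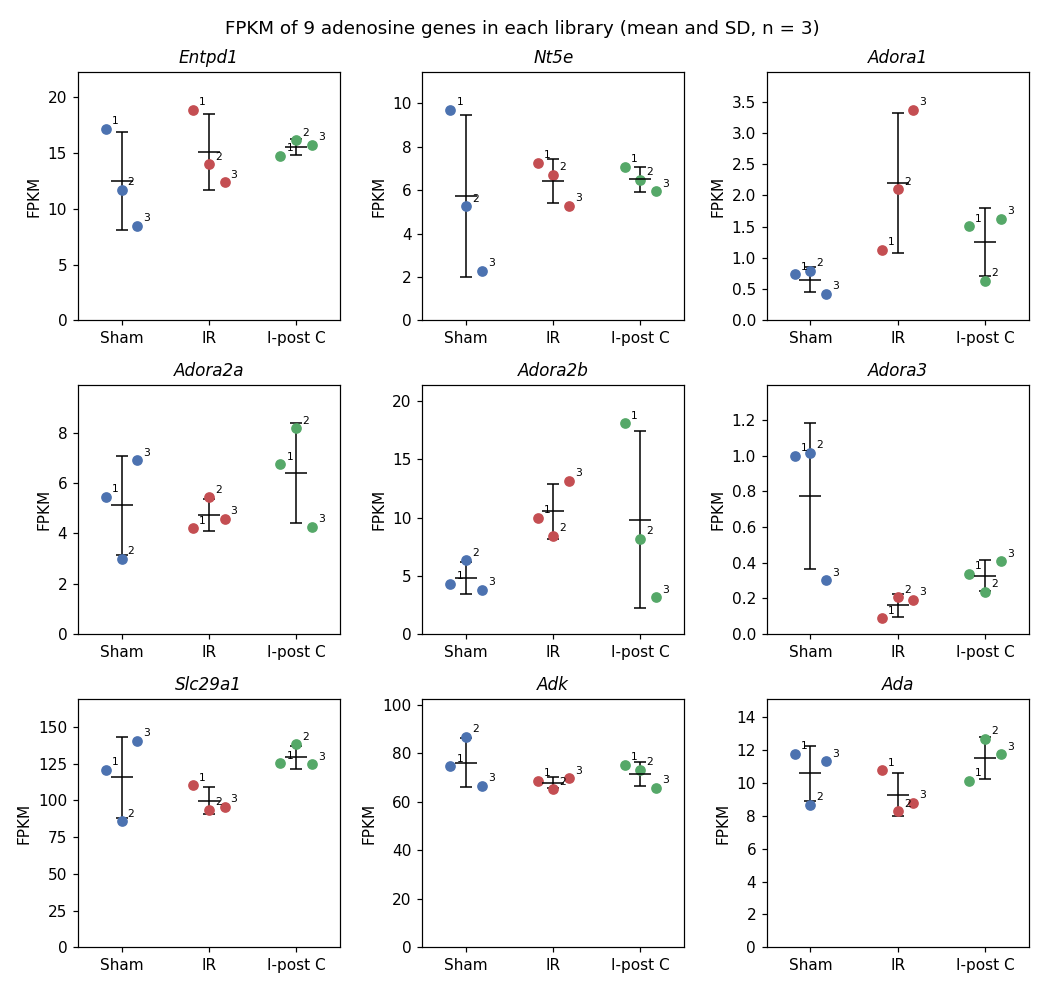
FPKM (linear axes from 0) of the 9 adenosine genes by library and group, with each numbered point a library and the bars showing mean and SD (n = 3). Adora1 and Adora2b lay higher in all 3 IR than in all 3 Sham libraries, and Adora3 lay lower.

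Among the 9 genes, Adora3, Adora1 and Adora2b had the 3 largest log2FCs in size in IR against Sham lungs. Adora1 (rn6 chromosome 13, 51042248 to 51076852), which encodes the A1 receptor, had an FPKM of 0.739, 0.795 and 0.426 in the Sham libraries. It had 1.13, 2.10 and 3.37 in IR and 1.51, 0.630 and 1.63 in I-post C lungs. Every IR library lay above every Sham library, while the I-post C libraries overlapped both groups, with I-post C 2 within the Sham range. The log2FC of Adora1 was 1.87 (standard error 0.56, 95% interval 0.61 to 3.14) in IR against Sham lungs. It did not pass edgeR's threshold (adjusted p = 0.255), and its adjusted p was 0.0329 from DESeq2 on all 9 libraries. The highest value came from IR 3, the library with abundant muscle transcripts, and without IR 3 the log2FC was 1.30 (adjusted p = 0.603 from edgeR). Without both Sham 3 and IR 3, a setting added after the data had been seen, it was 1.10. The part of the muscle transcripts in this difference was not tested beyond that.

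Adora2b (chromosome 10, 48569555 to 48586365), which encodes the A2B receptor, had an FPKM of 4.31, 6.35 and 3.78 in Sham lungs. It had 10.002, 8.45 and 13.1 in IR lungs, and the I-post C lungs had 18.1, 8.16 and 3.14. The IR values lay wholly above the Sham values, and the I-post C group held both the highest and the lowest value of all 9 libraries. The log2FC was 1.21 (standard error 0.55, 95% interval -0.04 to 2.45) in IR against Sham lungs and did not pass (adjusted p = 0.425 from edgeR). Its adjusted p was 0.266 from DESeq2 on all 9 libraries. From DESeq2 on the 6 libraries compared, added after the data had been seen, it was 0.0655. As for Adora1, the highest IR value came from IR 3, and without IR 3 the log2FC of Adora2b was 0.90, under the limit of 1. Among the 8 tested genes, Adora1 and Adora2b were the 2 with IR libraries wholly above the Sham libraries, where 5.62% of all tested genes were, and 0 lay wholly below, against 9.44%.

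Adora3 (chromosome 2, 208530864 to 208534506), which encodes the A3 receptor, known on mast cells in rodents, was the least abundant of the 9 genes. Its FPKM was 0.999, 1.02 and 0.300 in Sham lungs. It was 0.0874, 0.205 and 0.190 after IR, and 0.336, 0.235 and 0.407 after I-post C. These values came from 8 to 98 counts per library. The IR libraries lay wholly below both other groups. Among the 7431 genes under the filter, 2.45% had IR wholly below and 3.39% wholly above Sham libraries. I-post C lay wholly above IR libraries for 3.1% of them and wholly below for 2.35%, and the same shares against Sham were 3.61% and 1.64%. In an edgeR fit with no filter, the log2FC was -2.13 (standard error 0.66, 95% interval -3.60 to -0.66) in IR against Sham lungs and did not pass (adjusted p = 0.355). In the same unfiltered table its adjusted p was 0.0411 from DESeq2 on all 9 libraries and 0.148 from DESeq2 on the 6 libraries of these groups. Of the 22833 genes, edgeR called 0.14%, and these DESeq2 fits called 1.61% and 1.37%. The summed FPKM of 8 mast cell markers was 33.8 to 173 with Sham surgery, 51.8 to 155 after IR and 49.0 to 100.2 after I-post C. At the low ends, 1 marker, Kit, held 21.6 of the sum in Sham 3 and 33.7 in I-post C 3. Another, Mcpt1, ran from 1.61 in Sham 3 to 69.4 in IR 3. The part of mast cells in the level of Adora3 was not tested. Adora3 overlaps the spans of LOC100911453 and Tmigd3 on the same strand of rn6, so reads at this locus may have been split, and its values are uncertain. LOC100911453 had 6.57 to 7.25 FPKM in Sham and 6.53 to 7.06 in IR lungs, and Tmigd3 had at most 0.139 in any library.

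Adora2a (chromosome 20, 14265252 to 14282873), which encodes the A2A receptor of leukocytes and endothelium, had an FPKM of 5.46, 3.00 and 6.91 in Sham lungs. Its values were 4.21, 5.44 and 4.59 after IR and 6.75, 8.20 and 4.28 after I-post C. All 3 groups overlapped, and the IR values lay within the Sham range. The log2FC was -0.04 (95% interval -0.84 to 0.76, adjusted p = 0.977 from edgeR) in IR against Sham lungs. It was of the opposite sign without Sham 3 (0.31) or without IR 1 (0.093).

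Added over the 4 receptor genes, FPKM was 11.2 to 11.5 in the Sham, 15.4 to 21.3 in the IR and 9.45 to 26.7 in the I-post C libraries. Adora2a led in Sham 1 and Sham 3 and Adora2b in Sham 2, whereas Adora2b led in all 3 IR libraries. Adora2b made up 33.1% to 56.9% of the receptor FPKM in Sham and 52.2% to 64.8% in IR libraries, ranges that overlap. The share of Adora1 was 3.73% to 7.13% in Sham and 7.32% to 15.8% in IR libraries, and that of Adora3 was 2.62% to 9.12% and 0.566% to 1.27%. In the I-post C group, Adora2b led in library 1 with 67.8%, and Adora2a led in libraries 2 and 3 with 47.6% and 45.2%. These shares describe the libraries and were not tested.

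**Figure D2:**
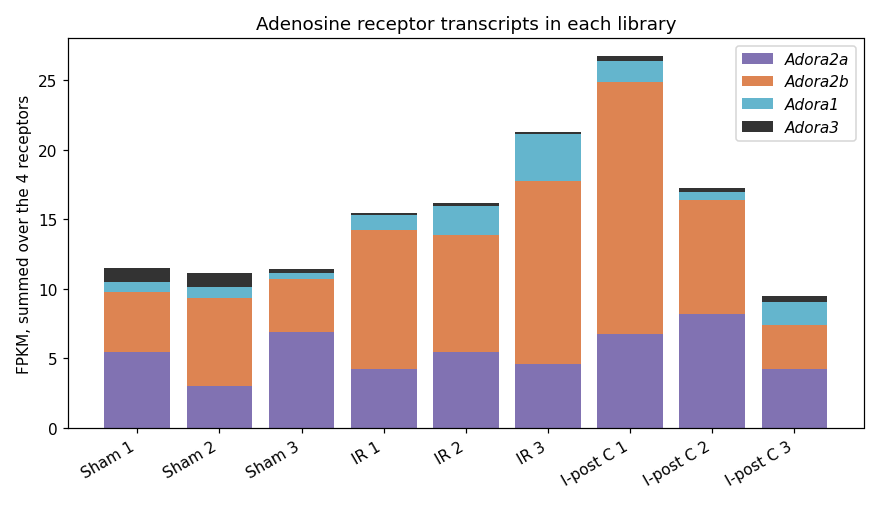
FPKM of the 4 adenosine receptor genes stacked for each of the 9 libraries, with the height of a bar giving their sum. The 3 Sham bars reach 11.2 to 11.5, the 3 IR bars 15.4 to 21.3, and the I-post C bars spread from 9.45 to 26.7.

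The promoters of the receptor genes that differed most between IR and Sham libraries, and that of Nt5e, are shown to compare the motifs near their start sites. RefSeq promoter windows of the GRCr8 build, from 250 bases before to 50 bases after the gene start, were matched for 8 of the 9 genes. Capitals mark the core of the hypoxia-inducible factor site (ACGTG or GCGTG) and the GC box bound by SP1 (GGGCGG), on either strand. The core of the cyclic AMP response element (TGACG), whose end can overlap ACGTG, was also searched on both strands and was found in 0 of the 8 windows.
Adora2b: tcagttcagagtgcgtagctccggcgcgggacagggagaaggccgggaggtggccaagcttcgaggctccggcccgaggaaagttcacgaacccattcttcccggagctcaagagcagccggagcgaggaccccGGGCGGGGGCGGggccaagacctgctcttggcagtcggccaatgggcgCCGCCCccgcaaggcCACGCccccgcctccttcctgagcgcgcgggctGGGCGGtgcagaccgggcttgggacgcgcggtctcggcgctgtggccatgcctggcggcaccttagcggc
Adora1: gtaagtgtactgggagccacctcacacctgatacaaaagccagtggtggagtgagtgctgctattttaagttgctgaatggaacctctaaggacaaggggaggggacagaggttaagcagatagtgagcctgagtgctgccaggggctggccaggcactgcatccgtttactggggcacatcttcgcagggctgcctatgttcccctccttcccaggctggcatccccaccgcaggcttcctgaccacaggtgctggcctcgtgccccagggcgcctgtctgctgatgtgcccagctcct
Adora3: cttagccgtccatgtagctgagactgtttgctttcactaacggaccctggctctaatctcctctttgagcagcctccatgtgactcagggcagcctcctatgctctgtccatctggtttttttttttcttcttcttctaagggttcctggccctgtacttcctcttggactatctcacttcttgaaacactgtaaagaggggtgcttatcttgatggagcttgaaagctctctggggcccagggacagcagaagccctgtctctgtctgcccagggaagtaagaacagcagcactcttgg
Nt5e: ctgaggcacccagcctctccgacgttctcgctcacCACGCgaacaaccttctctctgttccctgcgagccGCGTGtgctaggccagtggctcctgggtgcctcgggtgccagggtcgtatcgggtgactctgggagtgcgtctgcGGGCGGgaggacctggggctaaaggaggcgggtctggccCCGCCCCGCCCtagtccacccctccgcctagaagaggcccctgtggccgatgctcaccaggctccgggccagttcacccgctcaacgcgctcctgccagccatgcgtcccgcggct
These lie on chromosome 10 from 47439462 to 47439761 (plus strand), chromosome 13 from 48246782 to 48247081 (minus strand), chromosome 2 from 196076792 to 196077091 (plus strand) and chromosome 8 from 98150675 to 98150974 (plus strand), in that order. The Adora2b window held 4 GC boxes and 1 hypoxia core, the Nt5e window 3 and 2, and the windows of Adora1 and Adora3 held neither motif. Over all 33469 promoter windows of this length, 33.1% held a GC box, 41.6% a hypoxia core and 21.2% a TGACG site. Among the 8 windows of adenosine genes, 5 held a GC box (Nt5e, Adora2b, Ada, Adk and Slc29a1) and 3 a hypoxia core (Nt5e, Adora2b and Ada). Guanine and cytosine made up 72.0% of the Adora2b window, 69.3% of that of Nt5e, 59.0% of that of Adora1 and 50.3% of that of Adora3, with a median of 51.7% over all windows. A match is a description of the letters and not a bound site.

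The genes that generate adenosine did not separate the groups. Entpd1 (chromosome 1, 259739955 to 259819494), the ectonucleotidase of endothelium and leukocytes, had an FPKM of 17.2, 11.7 and 8.50 with Sham surgery, 18.9, 13.99 and 12.4 after IR and 14.7, 16.2 and 15.8 after I-post C. The groups overlapped, with Sham 3 the lowest library and IR 1 the highest. Its log2FC in IR against Sham lungs was 0.36 (standard error 0.20, 95% interval -0.10 to 0.82, adjusted p = 0.517 from edgeR), and 0.17 without Sham 3. Nt5e (chromosome 8, 95968652 to 96012696), which makes adenosine from AMP, had 9.69, 5.25 and 2.28 with Sham surgery, 7.25, 6.71 and 5.27 after IR and 7.08, 6.46 and 5.95 after I-post C. The Sham group alone spanned the values of both other groups, with Sham 1 the highest and Sham 3 the lowest of the 9. Its log2FC in IR against Sham lungs was 0.28 (95% interval -0.57 to 1.12, adjusted p = 0.813 from edgeR), and without Sham 3 it was -0.094, so its sign rests on that library. The level of Entpd1 over that of Nt5e was 1.77 to 3.72 in Sham, 2.08 to 2.61 in IR and 2.08 to 2.65 in I-post C libraries. The spread of Nt5e within the groups was a CV of 65.0% with Sham surgery, 15.9% after IR and 8.72% after I-post C.

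The genes that clear adenosine had a log2FC between -0.16 and 0.24 in all 3 comparisons. Slc29a1 (chromosome 9, 17784468 to 17799005), the main carrier of adenosine across the cell membrane, had an FPKM of 121, 85.8 and 140.3 with Sham surgery, 110.2, 93.6 and 95.7 after IR and 125, 138 and 124 after I-post C. All 3 I-post C libraries lay above all 3 IR libraries, and the Sham libraries spanned both. Among the 8 tested genes Slc29a1 alone had I-post C libraries wholly above IR libraries, where 11.2% of all tested genes did, and 0 lay wholly below, against 2.59%. The log2FC in I-post C against IR lungs was 0.24 (standard error 0.20, 95% interval -0.21 to 0.69, adjusted p = 1 from edgeR). In IR against Sham lungs it was -0.15 (95% interval -0.60 to 0.30), and 0.070 without Sham 3.

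Adk (chromosome 15, 3033495 to 3435888), which returns adenosine to AMP, had an FPKM of 76.1 ± 10.1 with Sham surgery, 67.9 ± 2.33 after IR and 71.4 ± 5.04 after I-post C (SD, n = 3). The libraries of the 3 groups overlapped, from 65.2 in IR 2 to 86.8 in Sham 2. Its log2FC in IR against Sham lungs was -0.10 (95% interval -0.49 to 0.29), an interval that holds changes of less than 1 on the log2 scale in both directions. Ada (chromosome 3, 160115842 to 160139947), which deaminates adenosine to inosine, had 10.6 ± 1.67, 9.27 ± 1.31 and 11.5 ± 1.29 (SD, n = 3) in the same order. Its lowest library was IR 2 at 8.28 and its highest I-post C 2 at 12.7. The log2FC of Ada was -0.12 (95% interval -0.62 to 0.37) in IR against Sham and 0.18 (95% interval -0.31 to 0.67) in I-post C against IR lungs. Neither gene passed edgeR's test (adjusted p = 0.862 for Adk and 0.857 for Ada in IR against Sham).

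**Figure D3:**
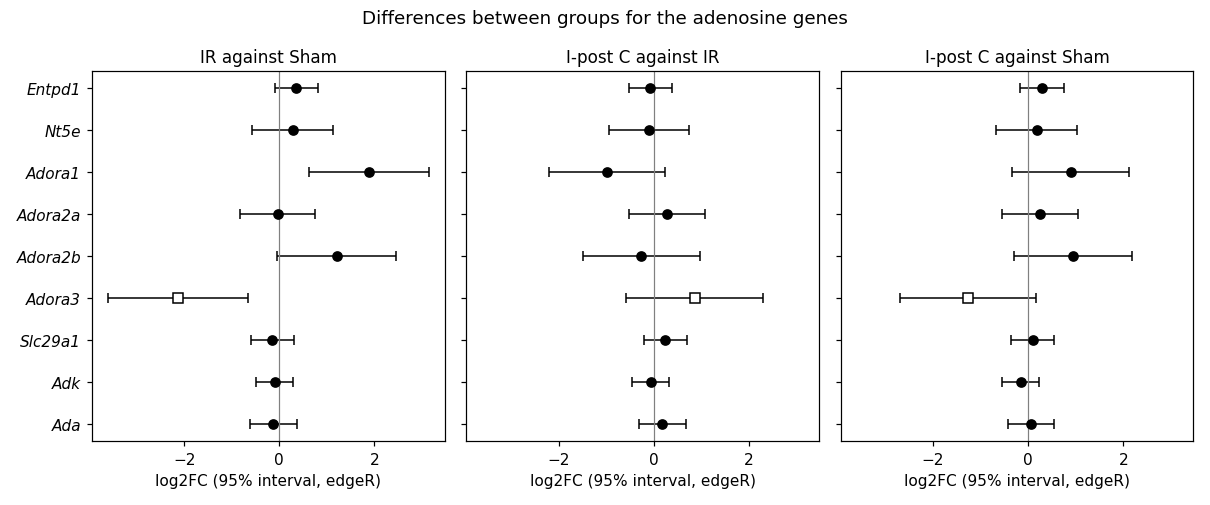
The log2FC (points) with 95% intervals from edgeR for the 9 adenosine genes in the 3 comparisons, with the open square of Adora3 from the fit with no filter. The interval lies wholly above 0 for Adora1 and wholly below 0 for Adora3 in IR against Sham, and every other interval includes 0.

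Post-conditioning was set against plain reperfusion to ask whether the adenosine genes differed 2 h later. Relative to IR lungs, the log2FC in I-post C lungs was -0.98 for Adora1 (standard error 0.55, 95% interval -2.21 to 0.25) and 0.86 for Adora3 (standard error 0.65, 95% interval -0.58 to 2.30, unfiltered fit). It was 0.29 for Adora2a (95% interval -0.51 to 1.08), -0.26 for Adora2b (95% interval -1.49 to 0.97), -0.10 for Nt5e, -0.07 for Entpd1 and -0.07 for Adk. None passed (adjusted p = 1 from edgeR for each of the 9). For Adora1 the log2FC was -0.42 without IR 3. For Adora2b it was -1.07 when I-post C 1 was left out, 0.15 when I-post C 3 was and 0.030 when IR 3 was, so its direction rests on single libraries. I-post C 3, the lowest library for Adora2b, had the highest summed FPKM of 6 neutrophil markers, 1236, against 163 and 227 in I-post C 2 and I-post C 1. That sum was 83.7 to 139 in Sham and 282 to 794 in IR libraries. The part of neutrophils in these values was not tested.

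Against Sham lungs, the log2FC in I-post C lungs was 0.89 for Adora1 (standard error 0.55, 95% interval -0.34 to 2.13) and 0.94 for Adora2b (standard error 0.55, 95% interval -0.30 to 2.19). Without I-post C 1, the log2FC of Adora2b fell to 0.13. It was -1.27 for Adora3 (standard error 0.64, 95% interval -2.69 to 0.16, unfiltered fit) and 0.25 for Adora2a. For the other 5 genes it lay between -0.16 (Adk) and 0.29 (Entpd1). None passed (adjusted p of 0.764 or more from edgeR), and none of the 9 genes had groups that did not overlap, where 5.56% of all tested genes lay wholly higher and 4.08% wholly lower in I-post C lungs.

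**Figure D4:**
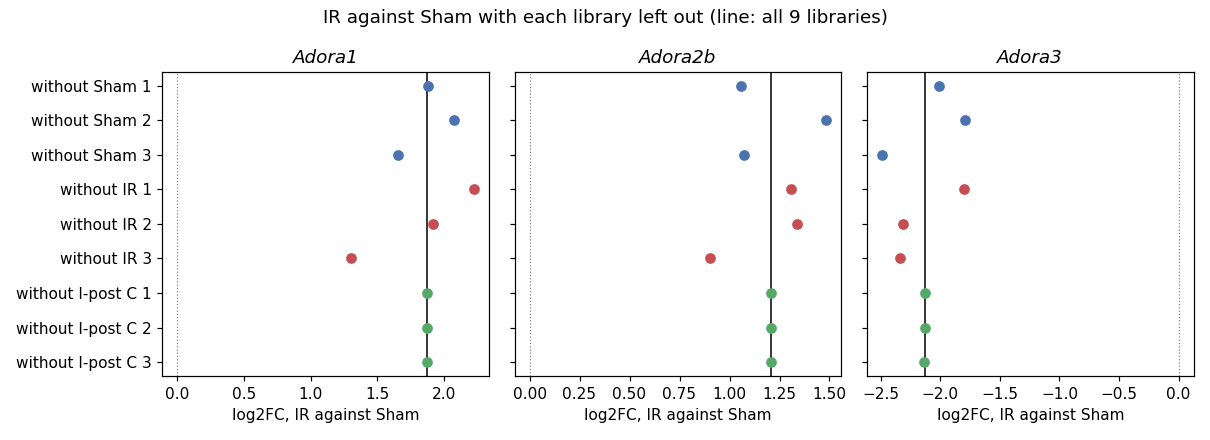
The log2FC of Adora1, Adora2b and Adora3 in IR against Sham lungs with each of the 9 libraries left out in turn (points, coloured by the group of the library left out), with the black line at the value from all 9. Adora1 moved from 1.87 to 1.30 and Adora2b from 1.21 to 0.90 without IR 3, and the sign of each gene was the same in all 9 fits.

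The wider adenosine system was read from 90 further genes in 8 lists, of which 88 were in the table and 76 passed the filter. They cover ATP breakdown and release, adenosine formation inside cells, nucleoside transport, removal, nucleotide receptors, G proteins and adenylyl cyclases, and cyclic AMP effectors and phosphodiesterases. In IR against Sham lungs edgeR called 0 of the 76, where it called 0.299% of all tested genes. At an unadjusted p under 0.05, 10 were higher and 2 lower, with 12.2% of all genes in either direction. DESeq2 on all 9 libraries called 3 of the 76 (Crem, Pde4b and Gja1, the last named after its values were seen), with 2.22% of all genes. The median log2FC was 0.14, against -0.02 over all genes tested, with 51 genes above 0 and 25 below. For I-post C against IR the counts were 0 called, 0 higher and 1 lower at an unadjusted p under 0.05 (3.01% of all genes), with a median of -0.04 against -0.01. DESeq2 on all 9 libraries called 0 there, with 0.0974% of all genes. For I-post C against Sham they were 0 called, 5 higher and 1 lower (6.91% of all genes), with a median of 0.12 against -0.03. DESeq2 on all 9 libraries called 2 there (Crem and Pde4b), with 0.825% of all genes.

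Of the 3 listed genes with the smallest p in IR against Sham lungs, Crem and Pde4b act on cyclic AMP signals and Gnai3 on its synthesis. Crem, which encodes a factor that binds cyclic AMP response elements and is itself induced by cyclic AMP, had an FPKM of 6.53, 7.14 and 5.42 with Sham surgery, 25.3, 28.4 and 38.5 after IR and 37.4, 45.1 and 11.5 after I-post C. Every library of either clamped group lay above every Sham library, and I-post C 3 was the lowest of the clamped lungs. Of all tested genes, 5.62% lay wholly higher in IR and 5.56% wholly higher in I-post C than in Sham lungs. The share higher in both was not counted. These 3 genes were picked by their small p in the same libraries, so these shares are no test of them. The log2FC was 2.36 (standard error 0.45, adjusted p = 0.0911 from edgeR) in IR and 2.22 (adjusted p = 0.239 from edgeR) in I-post C against Sham lungs. Crem was called by edgeR in both comparisons when I-post C 3 was left out. Pde4b, which encodes a phosphodiesterase that degrades cyclic AMP, had 8.33, 3.24 and 1.49 with Sham surgery, 32.6, 22.2 and 13.7 after IR and 16.2, 27.1 and 16.1 after I-post C. It too was higher in all 6 clamped lungs than in all 3 Sham lungs, where the 5.62% and 5.56% above are for each clamped group alone. Its log2FC was 2.503 (standard error 0.51, adjusted p = 0.115 from edgeR) and 2.19 (adjusted p = 0.372 from edgeR). Of the 16 cyclic AMP genes tested, 12 lay above 0 in IR against Sham, with a median log2FC of 0.33. Over all tested genes 47.9% lay above 0, with a median of -0.02. This list had the highest median of the 8 lists and was named after the values were seen. The medians of the others ran from -0.46 (nucleoside transporters, 1 of 4 above 0) to 0.15 (adenosine and AMP removal).

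Gnai3, which encodes an inhibitory G protein subunit of the kind that A1 and A3 receptors use, had an FPKM of 66.0, 58.9 and 46.1 with Sham surgery, 112, 102 and 87.7 after IR and 77.3, 102 and 77.6 after I-post C. All 6 clamped lungs lay above all Sham lungs, where 5.62% (IR) and 5.56% (I-post C) of all tested genes did so for that group alone. Its log2FC was 0.89 (standard error 0.16, adjusted p = 0.0814 from edgeR) in IR and 0.53 (adjusted p = 0.628 from edgeR) in I-post C against Sham lungs, under the limit of 1 in each. Ampd3, an AMP deaminase that draws AMP away from adenosine, had 10.4, 7.23 and 5.54 with Sham surgery, 15.8, 16.1 and 9.44 after IR and 12.6, 13.6 and 16.9 after I-post C. IR 3 lay within the Sham range and every other clamped lung above it, with a log2FC of 0.91 in IR and 0.86 in I-post C against Sham lungs. Neither passed (adjusted p = 0.192 and 0.554 from edgeR), and both were under the limit of 1. Ampd1, the AMP deaminase of skeletal muscle, had an FPKM of 10.3 in IR 3 and at most 0.547 in the other 8 libraries. Its log2FC in IR against Sham lungs was 4.86 with IR 3 and 1.58 without it. Adcy4, an adenylyl cyclase of lung endothelium, had 8.23, 7.37 and 5.61 in IR and 8.94, 10.49 and 11.3 in I-post C libraries. These did not overlap, where 11.2% of all tested genes had I-post C wholly above IR libraries. The Sham libraries, at 11.7, 7.64 and 7.60, overlapped both groups and held the highest value. The log2FC of Adcy4 in I-post C against IR lungs was 0.42 and did not pass (adjusted p = 1 from edgeR).

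**Figure D5:**
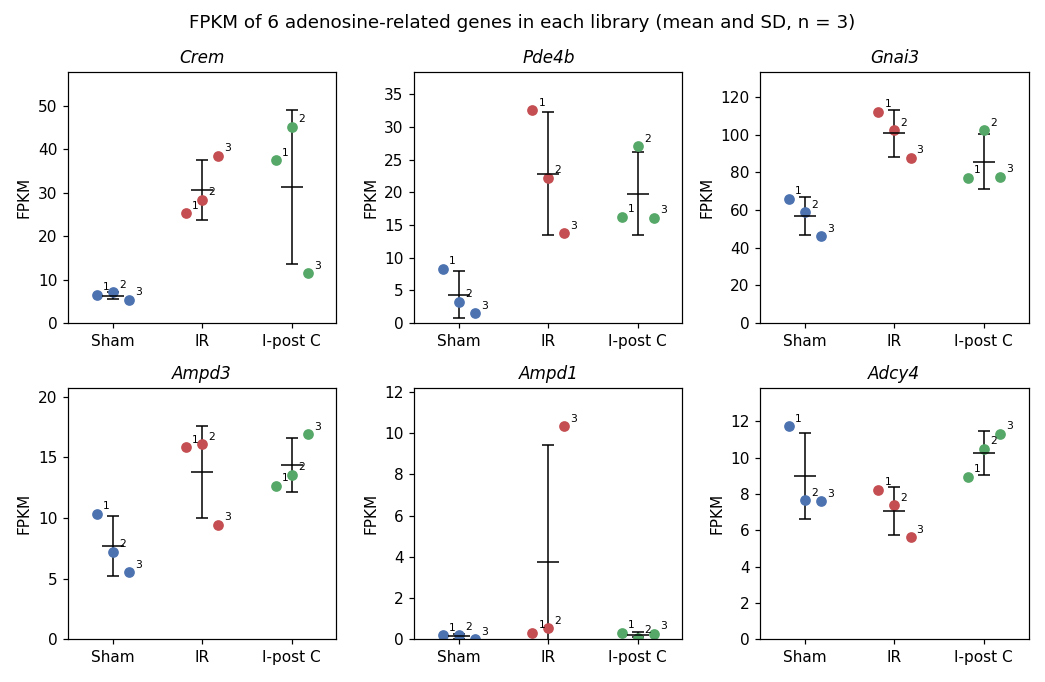
FPKM (linear axes from 0) of 6 adenosine-related genes by group, with each numbered point a library and bars for mean and SD (n = 3), the lower bar of Ampd1 in IR cut at 0. Crem, Pde4b and Gnai3 lay higher in all 6 clamped lungs than in the Sham lungs, and the Ampd1 level in IR came from library 3.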

How the data were processed

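Lung RNA of 9 rat libraries was sequenced as paired reads after poly(A) selection. The authors trimmed the reads with Cutadapt (1.9 in the submitters' processing notes), mapped them to rn6 with HISAT2 (2.2.1) and estimated FPKM with StringTie and ballgown. The notes give StringTie 2.1.6, and the methods of the study name another version of it. The FPKM values were deposited by the authors, scaled for transcript length and library size. Whole-number counts per gene were also deposited. The sources used here do not say how they were made or whether strand was used, and their totals exceed the mapped reads that the study lists.

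Counts were fitted with edgeR (4.0.16, TMM scaling, group as the only term, all 9 libraries) in R 4.3.3, with two-sided p-values adjusted by the Benjamini-Hochberg method over 15402 genes (mean FPKM 0.5 or more). Standard errors were worked back as the size of the log2FC over the square root of the quasi-likelihood F. Intervals of 95% came from these and a t distribution, so both are approximate. Adora3, under the filter, was read from a fit of all 22833 genes. DESeq2 (1.42.0) and limma (3.58.1, pseudocount 0.5) were alternatives, and the scripts were tested on simulated data. Promoter sequences came from RefSeq (GRCr8).

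The members, lists and thresholds were chosen with earlier results of these data known. Named genes were the 9 members, the 3 listed genes with the smallest p in each comparison, and the 3 genes nearest in pattern to each of the 3 members with the smallest p. Cell type markers were summed by list.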

Additional observations from a re-analysis of the deposited data

How the results depend on the processing

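Of the member results, each fitted again under the other settings, 431 kept their direction and side of the threshold, 3 passed it (Adora1 by both DESeq2 fits and Adora3 by DESeq2 on all 9 libraries, IR against Sham) and 22 changed sign, none of them past the threshold. Of the 8 members past the filter, those called in IR against Sham numbered 1 by DESeq2 on all 9 libraries and 1 on the 6 libraries compared. By edgeR they numbered 0 with all 9 libraries and 0 when any 1 library was left out. The DESeq2 fits were not repeated with single libraries left out. The related genes called there numbered 3 and 3, and 2 and 2 in I-post C against Sham, with 0 to 1 in both when 1 library was left out (1 without I-post C 3).

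All genes called in IR against Sham numbered 46 in the edgeR fit. They numbered 342 by DESeq2 on all 9 libraries, 293 by DESeq2 on the 6 compared, 28 by limma, 6 with edgeR on the 2 groups compared, 5 without Sham 3 and IR 3, and 0 to 55 with 1 library left out (0 without Sham 2 or IR 2, 1 without Sham 1, Sham 3 or I-post C 2, 5 without IR 3, 20 without I-post C 1 and 27 without IR 1). In I-post C against IR they numbered 0, with 15 and 38 by the same DESeq2 fits, 1 without Sham 3 and IR 3, and 0 to 1 with 1 library left out (1 without IR 3). In I-post C against Sham they numbered 0, with 127 and 108 by DESeq2, 2 without Sham 3 and IR 3, and 0 to 8 with 1 library left out (8 without I-post C 3 and 2 without IR 3). All fits with libraries left out were edgeR fits. The cause of these differences in number was not tested.

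Same-numbered IR and Sham libraries had correlations of their deviations of 0.452, -0.126 and 0.268, against -0.408 to 0.115 for differently numbered ones. For I-post C and IR they were -0.061, -0.269 and -0.008, against -0.236 to 0.369. For I-post C and Sham they were 0.107, -0.048 and 0.231, against -0.232 to 0.177. These values do not settle whether replicate numbers pair the libraries, which the labels do not state. With the replicate block, 26 genes were called in IR against Sham, and 0 members in any comparison.

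With 1 library left out, the log2FC in IR against Sham ranged from -0.31 to 0.31 for Adora2a, -0.094 to 0.74 for Nt5e, -0.32 to 0.070 for Slc29a1 and -0.21 to 0.033 for Adk. In I-post C against Sham it ranged from -0.022 to 0.60 for Adora2a, -0.19 to 0.63 for Nt5e, -0.074 to 0.32 for Slc29a1 and -0.052 to 0.16 for Ada. In I-post C against IR it ranged from -1.07 to 0.15 for Adora2b, -0.13 to 0.045 for Entpd1 and -0.12 to 0.036 for Adk. Without Sham 3 and IR 3, the sign turned in IR against Sham for Adora2a (0.26), Nt5e (-0.040) and Slc29a1 (0.020), in I-post C against Sham for Nt5e (-0.19), and in I-post C against IR for Adora2b (0.040) and Adk (0.046). By limma it turned in I-post C against IR for Adk (0.071), Entpd1 (0.064) and Nt5e (0.026), where the median of all genes moved to 0.11. Leaving out Sham 3 and IR 3 together, and DESeq2 on the 6 libraries, were added after the data had been seen.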

Other observations

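The genes whose pattern over the 9 libraries lay nearest to a member were found by the mean absolute difference between standardised log2(FPKM + 0.5) values. For Adora1 they were Ghrhr, Ripk2 and Trim63, at differences of 0.245, 0.255 and 0.272, with a median of 1.12 over the other 15401 genes. Ripk2, a kinase behind the NOD receptors, had an FPKM of 7.56, 7.42 and 4.21 in Sham, 15.9, 26.5 and 30.7 in IR and 11.5, 7.33 and 14.3 in I-post C libraries, with I-post C 2 again within the Sham range. For Adora2b they were Lhfpl2, C1qtnf7 and Egr1, at 0.215, 0.2505 and 0.338, with a median of 1.11. Egr1, an immediate early transcription factor gene, was at 3.71, 6.83 and 1.25 in Sham and 37.4, 39.9 and 28.0 in IR libraries. It was at 211.6 in I-post C 1, the library with the most Adora2b, 15.8 in I-post C 2 and 6.50 in I-post C 3. For Entpd1 they were Atf6, Man2a2 and Cd93, at 0.0776, 0.0810 and 0.105, with a median of 0.926. Cd93, an endothelial and myeloid surface protein gene, was at 57.6, 18.6 and 7.33 in Sham, 56.7, 30.0 and 21.5 in IR and 38.9, 49.4 and 38.6 in I-post C libraries. With 9 libraries and 15401 candidates, a near pattern says nothing of shared control.

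Among the receptors for ATP and other nucleotides, 12 of 15 P2X and P2Y genes passed the filter, and edgeR and DESeq2 called 0 in any comparison, with 0 at an unadjusted p under 0.05 in edgeR, where 12.2% of all tested genes were for IR against Sham. For I-post C that share was 3.01% against IR and 6.91% against Sham. P2rx4 and P2rx1 were the most abundant. P2rx4, a macrophage ATP channel gene, had an FPKM of 26.7 to 49.0 in Sham, 28.4 to 43.3 in IR and 36.0 to 44.4 in I-post C libraries. P2rx7, the ATP receptor gene that leads to inflammasome activation, had 1.13 to 7.34 in Sham, 2.08 to 5.73 in IR and 4.64 to 8.32 in I-post C libraries. Both overlapped across the groups and were named after their values were seen.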
